A study of Mus musculus with 6 samples.

Results

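Imprinted growth genes and noncoding RNAs were examined in the E13.5 mouse outflow tract (OFT), the vessel segment that carries blood out of the embryonic heart. The 34 genes were taken by symbol from the 28777 genes of the count table, and all 34 were listed and passed the filter on low counts, a sum of more than 5 reads over the libraries. By general knowledge, 21 are expressed from the paternal allele and 12 from the maternal allele, and Gnas gives transcripts of both kinds. The reads were not split by allele, so the parental origin of the RNA was not measured.

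The 6 bulk RNA-Seq libraries were made from pools of 3 micro-dissected OFTs each, 18 OFTs in all. Of these libraries, 3 are labelled Notch1+/-; Nos3-/-, the compound mutant that lacks endothelial nitric oxide synthase and carries 1 null allele of Notch1, and 3 are labelled wildtype (Notch1+/+; Nos3+/+). Both groups were littermates on a C57BL/6J background from Notch1+/-; Nos3+/- males bred to Nos3+/- females, and both null alleles are global rather than limited to a cell type. How the pools fell across litters is not given in the sources used here, so the p-values measure the spread between pools. In bulk tissue, fewer cells of a type and less RNA per cell cannot be told apart.

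Genomic imprinting is the silencing of 1 parental copy of a gene by DNA methylation that was set in the egg or the sperm. Imprinted genes lie in clusters, each governed by an imprinting control region, and many clusters hold a long noncoding RNA and protein-coding genes that are expressed from opposite alleles. Paternally expressed genes such as Igf2 tend to promote fetal growth, and maternally expressed genes such as Cdkn1c and Igf2r tend to restrain it.

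The labels were checked first. Nos3 was at 31.8, 47.2 and 48.1 CPM (counts divided by TMM-scaled library size, which makes libraries comparable) in the libraries labelled wildtype and at 22.1, 22.0 and 20.4 CPM in those labelled mutant. Its log2 fold change of −0.98 was not called by edgeR (adjusted p = 0.128) and was called by DESeq2 (adjusted p = 9.42e-06). Notch1 was at 74.3, 88.2 and 83.6 CPM under the wildtype label and at 155, 161 and 139 CPM under the mutant label, higher where 1 allele is null, and it was called (log2 fold change 0.89, adjusted p = 0.0313, edgeR quasi-likelihood with Benjamini-Hochberg adjustment over all genes). The groups are therefore named by their labels. Depth ranged from 34729103 to 44387490 counts per library. Markers of myocardium were summed at 30419 to 44454 CPM under the wildtype label and at 20537 to 29910 CPM under the mutant label, and 9 of the 12 were lower at an unadjusted p under 0.05. Markers of mesenchyme were summed at 4342 to 8499 and at 7889 to 10084 CPM, and 7 of the 10 were higher at that threshold. Markers of blood were summed at 5406 to 11901 and at 6164 to 6316 CPM, and 7 of the 10 were lower at that threshold. Wildtype replicate 3 held the highest myocardial and the lowest mesenchymal sum. Liver markers stood at 94.6 and 25.9 CPM in wildtype replicates 2 and 3 and at 1.03 to 4.99 CPM in the other 4 libraries. The part of these differences in the results below was not tested. A fit with the mean of the myocardial markers as a covariate is given beside the main fit. The sums of those markers did not overlap between the labels, so that fit cannot tell the label from the markers. The titles and descriptions of the samples number wildtype replicates 2 and 3 in opposite ways, and the numbers of the titles are used here.

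A few imprinted genes were among the most abundant transcripts counted in the OFT, and others ranked low, such as Phlda2 at 18794 to 22830. Together the 34 genes took 1.98 to 2.25% of all counts, and H19 and Igf2 alone took 1.29 to 1.60%, which is 64.6 to 70.8% of the counts of the imprinted genes. H19, a long noncoding RNA of the fetus, held the largest count of all genes listed in 5 of the 6 libraries and ranked 3 in wildtype replicate 3. The genes listed include 0 mitochondrial genes, so the ranks leave those out. Igf2, the fetal insulin-like growth factor, ranked from 2 to 10. Per kilobase of exon, H19 led with a mean of 3557 CPM per kb, and Igf2 followed with 947. Grb10, an adaptor that restrains insulin and IGF signalling, was at 223 CPM per kb, Igf2r, the receptor that clears Igf2 to lysosomes, at 197, and Mest, a paternally expressed hydrolase gene, at 175. Cdkn1c, which encodes the cyclin-dependent kinase inhibitor p57, was at 80.5 CPM per kb. The ranges over the 6 libraries of Grb10, Igf2r and Mest overlapped each other. At the low end, Dio3, Kcnq1ot1, Slc22a18, Rtl1 and Phlda2 had means between 0.26 and 0.31 CPM per kb. Kcnq1ot1 is spread over 93092 bases of exon, so its low value per kilobase stood beside 16.7 to 42.4 CPM in all.

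**Figure D1:**
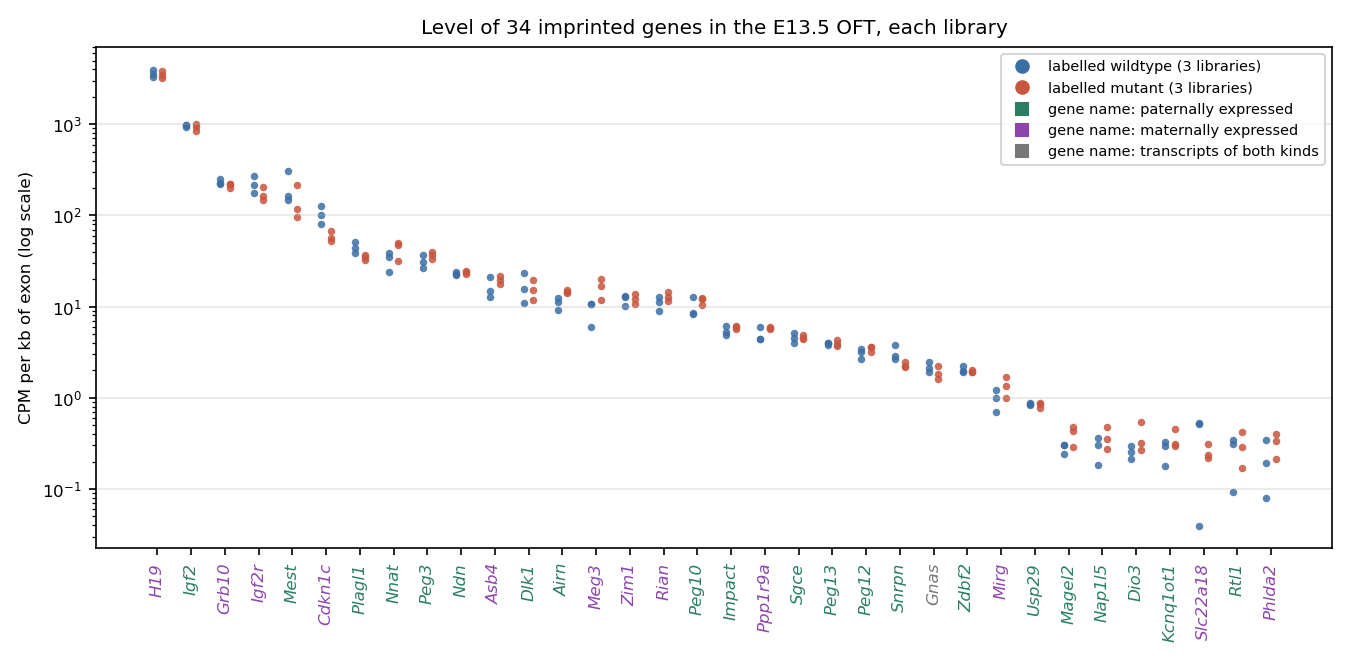
Level of each of the 34 imprinted genes in CPM per kb of exon (log axis), with 1 point per library, blue for the 3 libraries labelled wildtype and red for the 3 labelled mutant, and gene names coloured by the parental allele expressed. H19 at a mean of 3557 and Igf2 at 947 stand above the other genes, and Phlda2 at 0.26 is the lowest.

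To learn which imprinted genes differed between the labels, all 28157 genes that passed the filter were fitted together with edgeR's quasi-likelihood test. None of the 34 imprinted genes was called (0 genes with an adjusted p up to 0.05), where 0.0213% of all genes tested were called. At an unadjusted p under 0.05 there were 5 imprinted genes against a background of 16.1%. Of these, Meg3 and Airn were higher under the mutant label (background in that direction 8.23%), and Cdkn1c, Plagl1 and Snrpn were lower (background 7.83%). The groups did not overlap for 6 imprinted genes, these 5 and Grb10, against 19.6% of all genes. DESeq2's Wald test called Cdkn1c and Meg3, with 4.05% of the genes it tested called. With the replicate numbers in the titles as a block edgeR called 5 imprinted genes, Cdkn1c, Meg3, Airn, Mest and Nnat, with 5.6% of all genes called, and with those in the descriptions it called Cdkn1c alone, with 0.295% called. Without wildtype replicate 1, edgeR called 7 imprinted genes (Cdkn1c, Airn, Meg3, Peg10, Asb4, Ppp1r9a and Plagl1) and 9.45% of all genes.

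Fitted log2 fold changes, mutant minus wildtype, ran from −0.81 to 0.83, and 21 of the 34 were positive, or 26 when the counts were scaled by library size alone. Their median was 0.10 beside 0.01 over all genes tested. The median of the 21 paternally expressed genes was 0.14, with 14 positive and 7 negative values, and that of the 12 maternally expressed genes was 0.13, with 7 positive and 5 negative. With library size alone the median of all genes moved by over 0.1, to 0.11, and those of the paternally and maternally expressed genes to 0.24 and 0.23. With the mean of the myocardial markers as a covariate, 14 of the 34 values were positive and 20 negative, and the medians of the paternally and maternally expressed genes were −0.02 and −0.06.

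**Figure D2:**
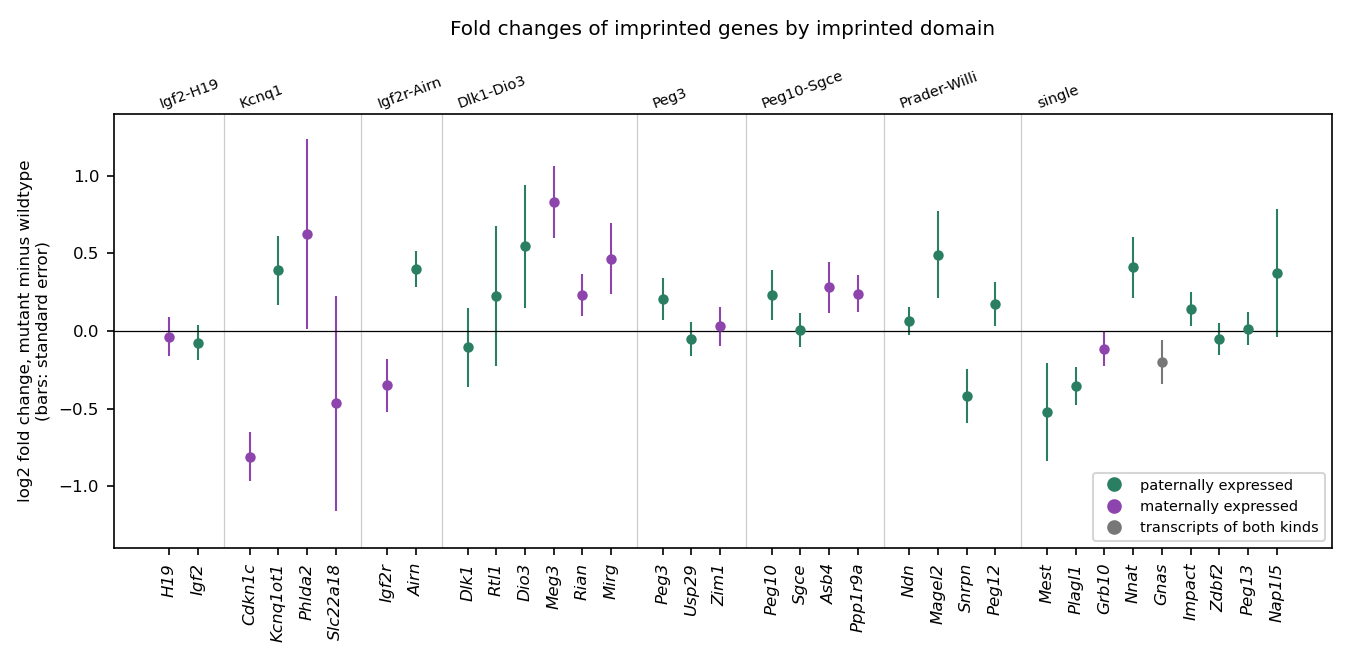
Fitted log2 fold change (mutant minus wildtype, edgeR) of each imprinted gene with its standard error, grouped by imprinted domain and coloured by the parental allele expressed. Values run from −0.81 for Cdkn1c to 0.83 for Meg3, and genes of either colour lie on both sides of 0.

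H19 and Igf2 share the enhancers of their domain on distal chromosome 7 and are expressed from opposite alleles under control of a CTCF-bound region. H19 (chr7:142575529-142578143, mm10, minus strand) was at 8095, 9743 and 8744 CPM in the libraries labelled wildtype and at 8636, 9450.4 and 7829 CPM in those labelled mutant. Igf2 (chr7:142650766-142666816, minus strand) was at 5637, 5653 and 5388 CPM and at 5303, 5698 and 4825 CPM. For both genes the groups overlapped, and neither difference exceeded its standard error in the unblocked fit. The log2 fold change was −0.04 ± 0.13 (SE, n = 3 per group) for H19 and −0.08 ± 0.11 for Igf2, and both values turned positive (0.07 and 0.03) with scaling by library size alone. With the replicate block of the titles together with a correction for GC content and length, Igf2 was called at −0.22 (adjusted p = 0.025, edgeR). By the annotation, 62.8% of the exon bases of Igf2 are shared with Gm49394, a gene on the same strand that was not analysed here.

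Both genes host a microRNA (miRNA) gene, and the mature sequences are shown because the seed, bases 2 to 8 in capitals, sets which messages a miRNA can pair with. Mature miRNAs were not measured by these libraries, and the sequences are those of RefSeq.
mmu-miR-675-5p, in an exon of H19: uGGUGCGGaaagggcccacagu
mmu-miR-675-3p, also in H19: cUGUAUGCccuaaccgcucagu
mmu-miR-483-5p, inside Igf2: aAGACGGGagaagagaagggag
mmu-miR-483-3p, inside Igf2: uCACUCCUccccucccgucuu
The hairpin row Mir483 held 24, 22 and 19 counts under the wildtype label and 50, 52 and 30 under the mutant label, so the groups did not overlap, whereas those of its host Igf2 did. Its log2 fold change was 1.05 ± 0.34 (unadjusted p = 0.0107, adjusted p = 0.222, edgeR). Whether these reads came from the hairpin or from the host transcript was not tested. The Mir675 hairpin was not analysed here.

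Beside the Igf2 domain lies the Kcnq1 domain, in which the paternally expressed noncoding RNA Kcnq1ot1 silences its neighbours in cis. Cdkn1c (chr7:143458339-143461050, minus strand) was at 165, 205 and 257 CPM in the libraries labelled wildtype and at 114, 106 and 137 CPM in those labelled mutant. The lowest wildtype library lay above the highest mutant library. The log2 fold change of −0.81 ± 0.16 (unadjusted p = 0.000383) did not pass over all genes in edgeR (adjusted p = 0.152). It passed in DESeq2 (adjusted p = 0.000495) and in edgeR with a block on the replicate number of the titles (adjusted p = 0.000434) or of the descriptions (adjusted p = 0.0386). With the myocardial markers as a covariate it was −0.46. Antisense to Cdkn1c the annotation holds Gm44732, which covers 30.7% of its exon bases, and the strand setting of the counting is not given in the sources used here.

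Kcnq1ot1 was at 27.6, 30.8 and 16.7 CPM under the wildtype label and at 29.0, 27.2 and 42.4 CPM under the mutant label, with the lowest value in wildtype replicate 3 and the highest in mutant replicate 3. Its groups overlapped (log2 fold change 0.39 ± 0.22, adjusted p = 0.404, edgeR). By the annotation Kcnq1ot1 lies inside Kcnq1, and whether some of its reads came from Kcnq1 was not tested. Phlda2, a placental growth restrainer, and Slc22a18, an organic cation transporter gene, stayed under 1 CPM in every library. Slc22a18 was at 0.07 CPM in wildtype replicate 1 and at 0.87 and 0.89 in wildtype replicates 2 and 3, so its fold change of −0.47 ± 0.69 rests on a wide spread. Kcnq1 itself, on the strand opposite to Kcnq1ot1, held 646, 712 and 622 counts under the wildtype label and 547, 478 and 472 under the mutant label, without overlap (log2 fold change −0.38, adjusted p = 0.227, edgeR).

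Igf2r and Airn overlap at their 5′ ends on chromosome 17, and transcription of the paternal noncoding RNA Airn runs antisense across the start of Igf2r. Igf2r (chr17:12682406-12769664, minus strand) was at 1990.3, 1640.5 and 2519 CPM in the libraries labelled wildtype and at 1532, 1377 and 1919 CPM in those labelled mutant. Airn (chr17:12741311-12860136, plus strand) was at 45.1, 40.2 and 33.1 CPM and at 51.6, 54.2 and 50.3 CPM. For Airn every mutant library lay above every wildtype library, and for Igf2r the groups overlapped. The log2 fold change was 0.40 ± 0.12 for Airn (unadjusted p = 0.00635, adjusted p = 0.199, edgeR) and −0.35 ± 0.17 for Igf2r (adjusted p = 0.342). With the replicate block of the titles Airn was called (adjusted p = 0.0323). Igf2r was called at −0.44 when the GC and length correction was added to that block (adjusted p = 0.000873), and it was −0.17 without wildtype replicate 3. With the myocardial covariate Airn was at 0.23 and Igf2r at 0.02.

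The RefSeq windows around the annotated starts of both genes, 250 bases before and 50 after, are shown to compare their CpG content. They do not show where the imprint of the domain lies, and sequence outside them and DNA methylation were not examined. Capitals mark each CpG.
Igf2r, GRCm38.p6 chr17:12769657-12769956, minus strand: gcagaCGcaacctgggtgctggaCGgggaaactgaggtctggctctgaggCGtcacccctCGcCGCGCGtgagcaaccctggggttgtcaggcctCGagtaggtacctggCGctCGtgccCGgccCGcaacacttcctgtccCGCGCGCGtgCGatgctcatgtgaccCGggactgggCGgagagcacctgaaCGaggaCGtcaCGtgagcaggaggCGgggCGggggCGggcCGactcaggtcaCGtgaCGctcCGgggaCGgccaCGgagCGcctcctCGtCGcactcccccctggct
Airn, GRCm38.p6 chr17:12741061-12741360, plus strand: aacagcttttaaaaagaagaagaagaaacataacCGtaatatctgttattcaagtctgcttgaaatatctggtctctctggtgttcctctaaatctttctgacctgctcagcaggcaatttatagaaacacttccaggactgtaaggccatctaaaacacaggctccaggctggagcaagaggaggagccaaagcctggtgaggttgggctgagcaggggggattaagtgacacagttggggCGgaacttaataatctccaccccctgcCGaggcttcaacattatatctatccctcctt
The Igf2r window held 34 CpG and the Airn window 3, beside a median of 7 over 32851 windows of the same length.

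Of the 6 genes of the Dlk1-Dio3 domain on chromosome 12, 5 had positive fold changes, beside 6 when scaled by library size alone or without wildtype replicate 2 or mutant replicate 3, 4 without wildtype replicate 3 or mutant replicate 2, and 2 with the myocardial covariate. The domain carries paternally expressed genes for the Notch-family ligand Dlk1, the retrotransposon-derived Rtl1 and the deiodinase Dio3, and a maternally expressed chain of noncoding RNAs, Meg3, Rian and Mirg. Meg3 (chr12:109541001-109571726, plus strand) was at 195, 191 and 108 CPM in the libraries labelled wildtype and at 306, 359 and 215 CPM in those labelled mutant. Each mutant library lay above each wildtype library, and the lowest value of either group was in replicate 3. The log2 fold change was 0.83 ± 0.23 (unadjusted p = 0.00422, adjusted p = 0.194, edgeR), and it passed in DESeq2 (adjusted p = 0.013) and with the replicate block of the titles (adjusted p = 0.000253). It was 0.23 with the myocardial covariate and 0.60 to 1.01 with 1 library left out.

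Rian and Mirg, downstream of Meg3, had smaller differences. Rian, which hosts small nucleolar RNAs, was at 229.9, 206 and 165 CPM under the wildtype label and at 232, 264 and 209 CPM under the mutant label, and its groups overlapped (log2 fold change 0.23 ± 0.14, adjusted p = 0.423, edgeR). Mirg, which hosts miRNA genes, was at 7.20, 8.84 and 5.15 CPM and at 9.80, 12.3 and 7.27 CPM (0.47 ± 0.23, adjusted p = 0.340). All 3 noncoding RNAs were lowest in wildtype replicate 3 and highest in mutant replicate 2. Both Rian and Mirg turned slightly negative, −0.05 and −0.07, with the myocardial covariate. Dlk1 was at 61.4, 134 and 89.1 CPM under the wildtype label and at 86.5, 111 and 66.4 CPM under the mutant label, so its spread within a group exceeded the difference of −0.11 ± 0.25. Rtl1, at 0.59 to 2.67 CPM, and Dio3, at 0.43 to 1.09 CPM, had wide errors, with log2 fold changes of 0.23 ± 0.45 and 0.54 ± 0.40.

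The 3 noncoding RNAs and Rtl1 span many of the 30 miRNA genes that lie inside imprinted genes of the list. Mirg holds 14 of them, Rtl1 7, most on the opposite strand, and Rian 3. Of 56 mature miRNAs there are 55 distinct seeds, and the only seed that is shared belongs to a pair inside Mirg. One mature miRNA per host and that pair are shown, with the seed in capitals. Distinct seeds can still be alike, and in Mirg those of mmu-miR-409-5p and mmu-miR-410-5p each resemble the seed of the pair.
mmu-miR-770-5p, in Meg3: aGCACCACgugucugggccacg
mmu-miR-127-3p, antisense in Rtl1: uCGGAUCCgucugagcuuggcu
mmu-miR-370-3p, in Rian: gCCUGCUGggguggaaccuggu
mmu-miR-410-3p, in Mirg: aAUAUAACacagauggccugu
mmu-miR-453, in Mirg: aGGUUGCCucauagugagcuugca
mmu-miR-496a-5p, in Mirg: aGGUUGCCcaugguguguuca

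The window at the first RefSeq start of Meg3 is shown with its CpG in capitals, because Meg3 had the largest positive fold change of the 34.
Meg3, GRCm38.p6 chr12:109540746-109541045, plus strand: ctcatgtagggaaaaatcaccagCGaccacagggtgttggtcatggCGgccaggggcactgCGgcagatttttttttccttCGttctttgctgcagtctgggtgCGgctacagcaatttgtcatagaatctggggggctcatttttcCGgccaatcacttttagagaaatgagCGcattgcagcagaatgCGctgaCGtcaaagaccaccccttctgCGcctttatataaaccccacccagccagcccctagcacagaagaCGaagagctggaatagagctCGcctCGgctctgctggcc
It held 13 CpG, and the window at a second start held 1.

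Plagl1, a zinc-finger regulator of the imprinted gene network, was at 299.6, 344 and 404 CPM in the libraries labelled wildtype and at 255, 275 and 289 CPM in those labelled mutant, without overlap. Its log2 fold change was −0.36 ± 0.12 (unadjusted p = 0.0147, adjusted p = 0.233, edgeR). It was −0.18 with the myocardial covariate and was called with the block of the titles and the GC and length correction together (adjusted p = 0.0106) and without wildtype replicate 1 (adjusted p = 0.0271). Snrpn, a splicing ribonucleoprotein gene of the Prader-Willi domain, was at 6.25, 5.68 and 8.10 CPM and at 4.72, 5.36 and 4.85 CPM, again without overlap (−0.42 ± 0.17, adjusted p = 0.280). By the annotation 27.3% of its exon bases are shared with Snurf and Gm38393 on the same strand. Grb10 was at 2279, 2015 and 2043 CPM and at 2003, 2012 and 1833 CPM, so the lowest library of one label and the highest of the other, at 2015 and 2012 CPM, nearly met. The log2 fold change of Grb10 was −0.12 ± 0.11 (adjusted p = 0.634).

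Mest and Nnat varied as much within the groups as between them. Mest was at 578, 643 and 1216 CPM under the wildtype label and at 468, 379 and 849.9 CPM under the mutant label, high in replicate 3 of either group. Its log2 fold change was −0.52 ± 0.32 (adjusted p = 0.439, edgeR), it ran from −0.11 without wildtype replicate 3 to −0.94 without mutant replicate 3, it was called with the replicate block of the titles (adjusted p = 0.0113), and it turned to 0.33 with the myocardial covariate. By the annotation 23.1% of its exon bases are shared with Copg2 on the opposite strand. Mest hosts a miRNA gene within its body, and 1 of the 2 products is mmu-miR-335-5p, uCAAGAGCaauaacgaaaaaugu, with the seed in capitals. Nnat, a small membrane proteolipid, was at 71.2, 63.5 and 43.5 CPM and at 86.5, 92.3 and 58.2 CPM, low in replicate 3 of either group. It had a log2 fold change of 0.41 ± 0.20 (adjusted p = 0.336), was called with that block (adjusted p = 0.0245) and was at −0.11 with the covariate.

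**Figure D3:**
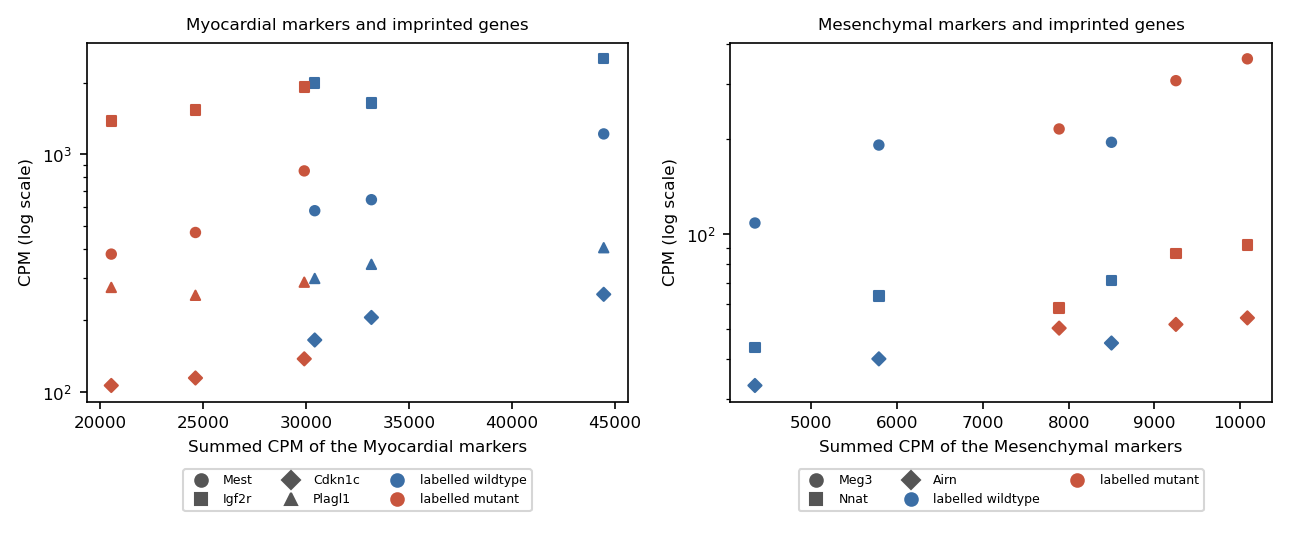
Level in CPM (log axis) of imprinted genes in each of the 6 libraries against the summed CPM of the Myocardial markers (left, with Mest, Igf2r, Cdkn1c and Plagl1) or the Mesenchymal markers (right, with Meg3, Nnat and Airn), blue for libraries labelled wildtype and red for those labelled mutant. The genes were chosen after their values were seen, and the libraries with the highest myocardial sum, 44454 CPM, and the lowest mesenchymal sum, 4342 CPM, are both wildtype replicate 3, where Mest is highest at 1216 and Meg3 lowest at 108.

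In the Peg10-Sgce domain all 4 genes had positive fold changes that did not pass, beside 14406 positive values among all 28157 genes tested. Without wildtype replicate 1 Peg10, Asb4 and Ppp1r9a were called (adjusted p = 0.0269, 0.0241 and 0.0225, edgeR), beside 9.45% of all genes. Peg10, a retrotransposon-derived gene, was at 86.0, 55.8 and 56.6 CPM under the wildtype label and at 81.7, 82.3 and 68.8 CPM under the mutant label. Asb4, a substrate receptor of a ubiquitin ligase, was at 82.9, 57.7 and 50.0 CPM and at 84.2, 77.2 and 70.3 CPM. In both genes wildtype replicate 1 lay within or above the range of the mutant libraries, and the other wildtype libraries lay below it. Sgce, the epsilon-sarcoglycan gene, was at 42.4 to 55.0 CPM over all libraries with a fold change of 0.01 ± 0.11, which turned negative (−0.08) without wildtype replicate 3.

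Peg3, a zinc-finger gene, was at 495, 413 and 354 CPM in the libraries labelled wildtype and at 489, 529.9 and 439.8 CPM in those labelled mutant (0.21 ± 0.13, adjusted p = 0.465, edgeR). Its neighbours Usp29 and Zim1 had log2 fold changes of −0.05 ± 0.11 and 0.03 ± 0.13. Among the Prader-Willi genes Ndn, which encodes necdin, was one of the steadiest, at 82.1 to 87.8 CPM and 84.5 to 90.9 CPM (0.06 ± 0.09). Magel2 and Peg12 of that domain were at 0.49 ± 0.28 and 0.17 ± 0.14. Of the remaining genes, Gnas had a fold change of −0.20 ± 0.14, Impact 0.14 ± 0.11, Zdbf2 −0.05 ± 0.10, Peg13 0.01 ± 0.11 and Nap1l5 0.37 ± 0.41, and the groups of all 5 overlapped. Gnas was at 18.0 to 27.6 CPM, and 22.0% of its exon bases are shared with genes on the opposite strand.

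The 6 libraries differed in how the imprinted genes lay as a group. Wildtype replicate 3 was the lowest library for 16 of the 34 genes and the highest for 6, and mutant replicate 2 was the highest for 16 and the lowest for 5. The median deviation of the paternally expressed genes from their own mean over the libraries, on the log2(CPM + 0.5) scale, was 0.06, −0.02 and −0.10 in wildtype replicates 1 to 3 and 0.01, 0.12 and −0.04 in mutant replicates 1 to 3. That of the maternally expressed genes was 0.09, 0.04 and −0.19, and 0.04, 0.16 and −0.06. Both classes were thus lowest in wildtype replicate 3 and highest in mutant replicate 2, and wildtype replicate 1 lay above mutant replicates 1 and 3 for both.

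**Figure D4:**
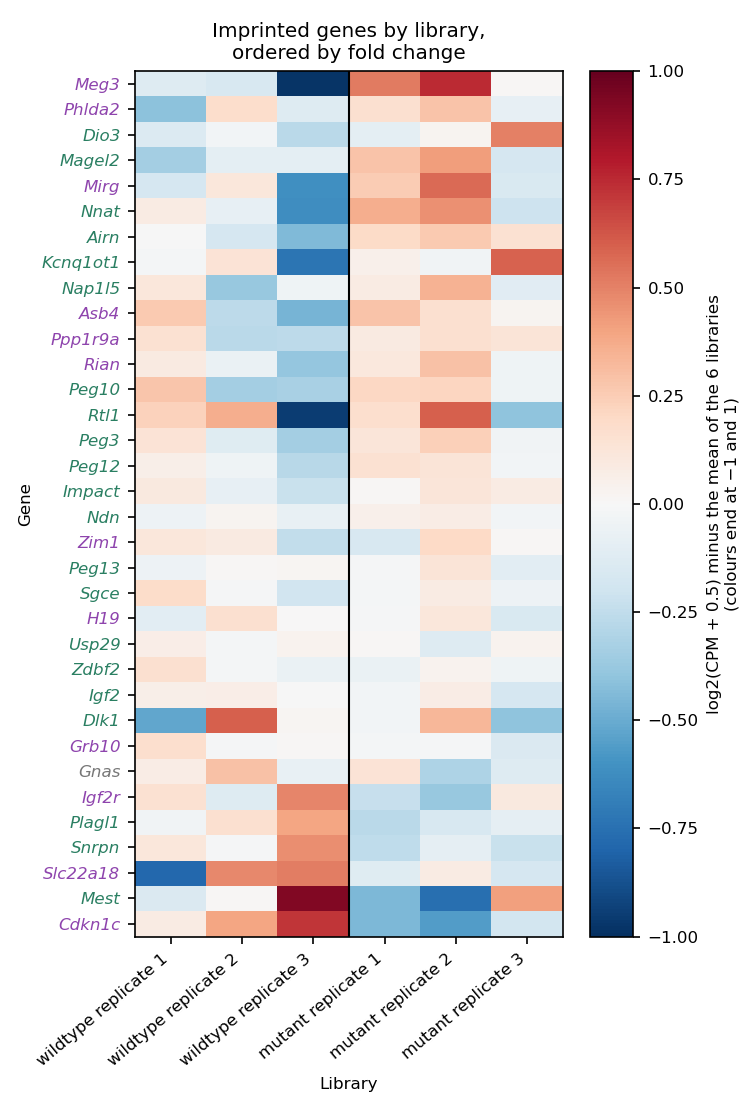
Deviation of each imprinted gene in each library from its mean over the 6 libraries, as log2(CPM + 0.5), with red above and blue below the mean and colours that end at −1 and 1. Rows are ordered by fold change, and wildtype replicate 3, the lowest library for 16 genes, stands out at either end.

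To compare a maternally expressed gene with a paternally expressed neighbour inside the same library, 5 ratios were formed on the log2(CPM + 0.5) scale and tested with a two-sided exact permutation test, which cannot give a p under 0.1 with 3 libraries against 3. H19 over Igf2 was 0.67 ± 0.13 (SD, n = 3) under the wildtype label and 0.71 ± 0.02 under the mutant label (exact permutation p = 0.8). Igf2r over Airn was 5.45, 5.33 and 6.23 under the wildtype label and 4.88, 4.66 and 5.24 under the mutant label. Cdkn1c over Kcnq1ot1 was 2.56, 2.72 and 3.91 and 1.96, 1.94 and 1.68. Meg3 over Dlk1 was 1.66, 0.52 and 0.28 and 1.82, 1.69 and 1.69. Without wildtype replicate 3 the difference was −0.47 for Igf2r over Airn (exact permutation p = 0.2) and −0.78 for Cdkn1c over Kcnq1ot1. With all libraries the groups did not overlap for these 3 ratios, which differed by −0.75, −1.20 and 0.91 (each exact permutation p = 0.1, adjusted p = 0.167 over the 5 ratios). For Meg3 over Dlk1, wildtype replicate 1 at 1.66 lay just below the lowest mutant library at 1.69. Zim1 over Peg3 was −2.11 ± 0.12 and −2.29 ± 0.17 (exact permutation p = 0.2, adjusted p = 0.25).

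**Figure D5:**
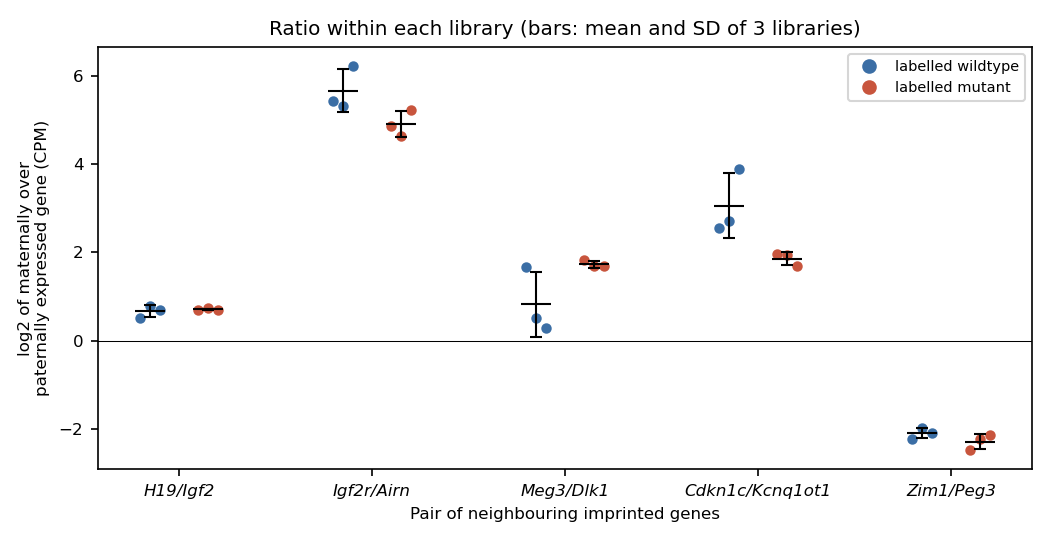
Log2 ratio of a maternally over a paternally expressed neighbour in each library, blue for labelled wildtype and red for labelled mutant, with the mean and SD of 3 libraries. The groups are apart for Igf2r/Airn, Meg3/Dlk1 and Cdkn1c/Kcnq1ot1, and H19/Igf2 is near 0.7 in both.

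Genes that read, set, keep, remove or neighbour the imprints were taken from 3 lists. Of 15 genes of the Igf2 pathway, such as its receptors and RNA-binding proteins, 8 had positive and 7 negative fold changes. Among them edgeR called 0 and gave 0 an unadjusted p under 0.05, beside 0.0213% and 16.1% of all genes. DESeq2 called 0, beside 4.05% of all genes. The smallest p belonged to Igf1, a growth factor gene (0.51 ± 0.28, adjusted p = 0.395, edgeR). It was at 190.5, 114 and 72.3 CPM under the wildtype label and 186, 208 and 140.5 CPM under the mutant label. With the replicate block of the titles Igf1 was called at 0.60 (adjusted p = 0.0187, edgeR), the 1 call of that list, beside 5.6% of all genes. With the block of the descriptions Igf1 was not called (adjusted p = 0.235, edgeR). The values of the RNA-binding protein genes Igf2bp3 and Lin28a were −0.20 ± 0.11 and −0.97 ± 0.58, the last under 0.4 CPM in every library.

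Of 27 genes that set, keep or remove imprints, 25 were tested, 12 with positive and 13 with negative fold changes. None was called by edgeR (0 genes), 5 had an unadjusted p under 0.05, all 5 higher under the mutant label, and DESeq2 called 2, Ctcfl and Zfp57, beside 16.1%, 8.23% higher and 4.05% of all genes. With the replicate block of the titles edgeR called the same pair (adjusted p = 0.0217 and 0.00579), beside 5.6% of all genes. With the block of the descriptions it called 0 of the list (adjusted p = 0.121 and 0.105 for that pair), beside 0.295% of all genes. Zfp57, a zinc-finger protein that binds methylated imprinting control regions, was at 38.7, 33.9 and 28.8 CPM under the wildtype label and at 48.5, 54.8 and 44.1 CPM under the mutant label. The groups did not overlap (log2 fold change 0.54 ± 0.13, unadjusted p = 0.00145, adjusted p = 0.181, edgeR). Ctcfl, the germline paralogue of Ctcf, was at 0.63, 0.65 and 0.68 CPM and at 1.52, 1.92 and 1.38 CPM (1.30 ± 0.29, adjusted p = 0.181). The de novo methyltransferase gene Dnmt3b had a value of 0.44 ± 0.15 (adjusted p = 0.224). The letters TGCCGC, the core of the site that Zfp57 recognises, were found on either strand in 11 of 43 RefSeq start windows of the imprinted genes (25.6%), beside 11.6% of all windows. The 43 windows belong to 27 genes and some overlap. Those of Mest that start at 30737800 and 30737803 count the same letters more than once. Imprinted windows were also richer in CpG, with a median of 13 beside 7.

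Of 50 other imprinted genes or neighbours of imprinted domains, 47 were tested, with 20 positive and 27 negative fold changes. None was called by edgeR (0 genes), 11 had an unadjusted p under 0.05, of which 9 were lower, and DESeq2 called 3, Ddc, Commd1 and Pdk4, all lower under the mutant label, beside 16.1%, 7.83% lower and 4.05% of all genes. With the replicate block of the titles edgeR called 6 of the 47, among them Ddc, Commd1 and Pdk4 (adjusted p = 0.000769, 0.0376 and 0.0264), beside 5.6% of all genes. With the block of the descriptions it called 0 of the 47, beside 0.295% of all genes. The adjusted p in that fit was 0.0997 for Ddc, 0.176 for Commd1 and 0.134 for Pdk4. Ddc, the dopa decarboxylase gene beside Grb10, which has a heart-specific imprinted transcript, was at 71.2, 67.8 and 112 CPM under the wildtype label and at 48.2, 43.6 and 60.3 CPM under the mutant label, without overlap (−0.72 ± 0.19, adjusted p = 0.194, edgeR). Commd1 was at −0.45 ± 0.12 and Pdk4, a kinase that restrains pyruvate oxidation, at −0.48 ± 0.13.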

How the data were processed

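RNA was sequenced from 6 pools of mouse OFTs. The authors aligned the reads with TopHat2 2.1.0 to mm10 and counted those on exons with GenomicAlignments. The deposited values are raw counts, 1 whole number per gene and library. The annotation release and the strand setting of the counting are not given in the sources used here. Groups follow the labels.

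In R 4.3.3, genes were kept when their reads summed to more than 5. The 28157 kept were scaled by TMM and fitted with edgeR 4.0.16 (glmQLFit and glmQLFTest, 3 libraries against 3, no covariate), p-values were adjusted by Benjamini-Hochberg over all of them, and genes were called up to an adjusted p of 0.05. DESeq2 1.42.0 was an alternative. CPM use the TMM scaling. Positions, exon lengths and GC content came from GENCODE M21, which held 28723 of the 28777 identifiers. Sequences came from RefSeq (GRCm38.p6), which gave start windows for 27 of the 34 genes. Code was tested on simulated counts. Depth was 34729103 to 44387490 counts per library, and errors cover the spread between libraries.

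The imprinted genes and the lists were chosen with earlier results of these data known. The 34 genes are all named, and of each further list the called genes and up to 3 with the smallest unadjusted p. The lists of markers were written from general knowledge. Replicate numbers come from the titles, with no litter or day stated. Deviations of same-numbered libraries from their group means correlated at 0.10, 0.15 and 0.46, all above 0.1, so the blocked fit is given where it changes a call. These correlations come from the same counts as the fit and cannot show what the replicate numbers stand for.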

Additional observations from a re-analysis of the deposited data

How the results depend on the processing

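No imprinted gene was called by edgeR when counts were scaled with DESeq2's size factors or by library size alone, with no filter, filterByExpr, the GC and length correction or the myocardial covariate, or without any library but wildtype replicate 1. The block on the titles called 5 of them and 1577 genes in all, the block on the descriptions 1 and 83, the block on the titles with the GC and length correction 9 (Igf2, Cdkn1c, Igf2r, Airn, Meg3, Asb4, Mest, Plagl1 and Nnat) and 2039, and DESeq2 2 and 742, beside 0 and 6 in the unblocked fit. Not every library correlated best with its own number, since wildtype replicate 1 correlated best with mutant replicate 2, at 0.32, and with the numbers of the descriptions 2 of the 3 correlations were negative, −0.12 and −0.49. The covariate left 2 genes called in all. Leaving out 1 library gave 1 to 2593 calls over all genes and 0 to 7 imprinted genes, and the 2593 and the 7 came without wildtype replicate 1. The median of the paternally expressed genes was 0.24 with library size alone, −0.015 with the covariate and 0.044 to 0.23 with a library left out, and that of the maternally expressed genes was 0.23, −0.063 and 0.032 to 0.16, with the lowest values of both classes without wildtype replicate 3 or mutant replicate 2.

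The following log2 fold changes changed sign. With library size alone H19 was at 0.071, Igf2 0.029, Dlk1 0.009, Usp29 0.051 and Zdbf2 0.049, and with the GC and length correction Peg13 was at −0.022 without and −0.024 with the block. With the covariate Igf2r was at 0.018, Rtl1 −0.87, Rian −0.052, Mirg −0.074, Peg3 −0.037, Usp29 0.011, Zim1 −0.15, Peg10 −0.015, Sgce −0.15, Peg12 −0.0075, Mest 0.33, Nnat −0.11 and Peg13 −0.066. With 1 library left out the ranges that crossed 0 were −0.11 to 0.037 for H19, −0.34 to 0.23 for Dlk1, −0.15 to 0.53 for Rtl1, −0.077 to 0.12 for Zim1, −0.081 to 0.11 for Sgce, −0.099 to 0.019 for Zdbf2 and −0.051 to 0.069 for Peg13. The difference of the H19 over Igf2 ratio ranged from −0.031, without wildtype replicate 1, to 0.10. The cause of these changes was not tested. The other 4 ratios kept their sign under each alternative run, but Igf2r over Airn and Cdkn1c over Kcnq1ot1 shrank to −0.47 and −0.78 without wildtype replicate 3, and Zim1 over Peg3 to −0.09 without mutant replicate 1, and the pairs of the block cannot give a p under 0.25.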

Other observations

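Inside or across imprinted genes of the list lie 33 other tested transcripts. Of these, 13 are genes of small RNAs and 9 had a mean of at least 1 CPM. Some, such as Kcnq1, Copg2 and Herc3, are also among the 50 other imprinted genes or neighbours above. The 33 were looked at after the values of their hosts had been seen. In edgeR 0 of the 33 were called, 9 had an unadjusted p under 0.05, and the groups of 12 did not overlap, beside 0.0213%, 16.1% and 19.6% of all genes. With the replicate block of the titles edgeR called 5 of them, beside 5.6% of all genes. They were Gm16574 (adjusted p = 0.00396), Gm7162 (0.000591), Copg2 (0.0403), Herc3 (0.0161) and Gm26736 (0.0171). With the block of the descriptions it called Gm7162 alone (adjusted p = 0.0264), beside 0.295% of all genes. Gm26736 held only 0, 0 and 0 counts under the wildtype label and 27, 7 and 4 under the mutant label. Inside Airn, Gm16574 on the same strand held 349, 279 and 198 counts in the libraries labelled wildtype and 444, 449 and 473 in those labelled mutant, a log2 fold change of 0.78 ± 0.14 (adjusted p = 0.128 in edgeR and 0.000853 in DESeq2). Gm7162, on the opposite strand of Airn, held 457, 428 and 302 counts and 744, 689 and 638, a log2 fold change of 0.85 ± 0.11 (adjusted p = 0.0625 in edgeR and 1.63e-06 in DESeq2). Both were about as far apart between the labels as Meg3 and further than Airn, at 0.40. Both are annotated as processed pseudogenes, and whether their reads came from this site or from similar genes elsewhere was not tested. Kcnq1, Copg2 and Herc3, which lie on the strands opposite to Kcnq1ot1, Mest and Nap1l5, had negative values of −0.38, −0.38 and −0.45 with unadjusted p-values of 0.0129, 0.0165 and 0.00942.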
